A study of Mus musculus with 4 samples.

Results

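Transforming growth factor beta (TGF-beta) ligands, receptors and targets were followed through single-cell RNA libraries of prostate tumor grafts and subcutaneous adipose tissue (SAT). The 9 genes were Tgfb1, Tgfb2, Tgfb3, Tgfbr1, Tgfbr2, Tgfbr3, Tgfbi, Ctgf and Ltbp1, taken by name from the 31053 genes of each count table, and all 9 were found. The mice were chow-fed, of the strain the labels spell VFB (FVB in the study's methods), and carried a subcutaneous graft of MycCaP, a mouse prostate cancer line derived from Myc-transgenic mice. Because the grafted line and the host are both mouse, cancer and host cells were told apart by marker genes and not by species. D-CAN mice received a peptide that homes to adipose stromal cells, joined to an amphipathic sequence, and control mice received PBS. Each of the 4 groups, tumor control, tumor D-CAN, SAT control and SAT D-CAN, was 1 library. SAT was labelled as a stromal/vascular preparation, and the ages of the mice and whether a library pooled animals are not given in the sources used here.

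With 1 library per group no difference between tissues or treatments could be tested. All intervals are 95% counting intervals and leave out the variation between mice. A level is given as CPM, the unique molecular identifiers (UMI) of a gene per 1000000 UMIs of a class of cells. The libraries held 1525 to 2851 cells and 6667064 to 17996284 UMIs, and pairs of libraries shared at most 2 cell barcodes. Clusters were named from fixed marker genes without use of the 9 genes, which gave cancer-like, macrophage-like, endothelial-like, fibroblast-like and perivascular-like cells in tumors. SAT gave the last 4 of these and dendritic-like, neutrophil-like, T or NK-like and B-like cells. Cancer-like cells held UMIs of 8 of 9 cancer markers in control and 7 in D-CAN, with sums of 1613 and 1699.5 CPM. Cldn7 was at 0 in both and Epcam in D-CAN. With cells gated one by one on the markers, 833 control and 435 D-CAN cells were cancer-like, in place of 1827 and 876. The gate left 1112 and 540 tumor cells unnamed. In every library the fibroblast-like cells held UMIs of all 9 fibroblast markers, including Col1a1, Dcn and Pdgfra, with a sum of 30338 to 41738 CPM. The adipocyte markers Adipoq, Plin1, Cidec and Lep were at 0 in SAT and in tumor control fibroblast-like cells, and summed to 46.5 CPM in those of tumor D-CAN. The fibroblast-like class held 84 tumor control, 66 tumor D-CAN, 294 SAT control and 87 SAT D-CAN cells, with median depths of 4644, 7966, 878 and 4739 UMIs per cell.

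TGF-beta ligands are secreted as latent complexes, in which the mature dimer stays bound to its propeptide and to a latent TGF-beta binding protein (LTBP) that anchors it in the extracellular matrix. Once released, a ligand binds the type II receptor (Tgfbr2), which phosphorylates the type I receptor (Tgfbr1), and the type III receptor (Tgfbr3, betaglycan) presents ligand to this pair. The signal passes through SMAD proteins to genes of the matrix and the cytoskeleton, and in fibroblasts it is known for driving the contractile, matrix-producing state of myofibroblasts. An RNA level does not show how much ligand was active or how strongly a receptor signalled.

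The ligands Tgfb1 and Tgfb2 lie on chromosomes 7 (25687002 to 25705077, plus strand) and 1 (186622792 to 186705989, minus strand) of GRCm38. They are shown by the 250 bases before their start sites, because different classes of SAT cells had their highest levels. In tumors cancer-like cells held most UMIs of both. Of the 9 genes, 6 had a promoter in the RefSeq table used (GRCm38.p6), and none was given for Tgfb3, Tgfbr3 and Ctgf. Capitals mark every match, on either strand, to the TATA box TATAAA, the GC box GGGCGG, the E-box CACGTG and the CAGA element CAGACA.
Tgfb1 (chr7:25686752-25687001, plus strand): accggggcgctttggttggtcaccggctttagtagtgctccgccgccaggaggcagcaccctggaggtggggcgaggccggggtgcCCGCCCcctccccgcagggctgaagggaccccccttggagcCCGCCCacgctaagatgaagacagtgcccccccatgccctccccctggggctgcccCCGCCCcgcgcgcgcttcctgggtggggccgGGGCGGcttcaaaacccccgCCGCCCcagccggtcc
Tgfb2 (chr1:186705990-186706239, minus strand): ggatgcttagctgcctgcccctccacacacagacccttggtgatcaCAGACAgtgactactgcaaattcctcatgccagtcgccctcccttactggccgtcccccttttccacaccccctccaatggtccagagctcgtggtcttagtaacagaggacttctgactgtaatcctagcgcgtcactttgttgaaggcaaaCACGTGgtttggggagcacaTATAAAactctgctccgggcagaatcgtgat
The Tgfb1 window had 75.2% G or C and 5 GC boxes, with no TATA box or E-box. The Tgfb2 window had 53.6% G or C, close to the median of 52.4% over all promoters, and held 1 TATA box, 1 E-box and 1 CAGA element but no GC box. Among 32851 promoter windows of this length, 12.4% held the TATA box, 32.7% the GC box, 6.02% the E-box and 17.1% the CAGA element. No match overlapped another. A match only describes these letters.

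The ligand Tgfb1, the form made by most tissues and by immune cells, was found in every class. In the tumor control library its level was 147 CPM in endothelial-like, 97.5 in fibroblast-like, 91.2 in macrophage-like, 80.5 in perivascular-like and 55.4 in cancer-like cells, and each of these levels had an interval that overlapped the next. The tumor D-CAN library gave 137, 73.1, 125, 108 and 58.2 CPM in the same classes. In SAT control the level was 139.8 CPM in B-like and in macrophage-like, 110.1 in endothelial-like, 94.3 in T or NK-like, 64.2 in perivascular-like, 33.9 in fibroblast-like and 33.4 in dendritic-like cells. In SAT D-CAN it ran from 165 CPM in macrophage-like to 8.82 CPM in fibroblast-like cells. In SAT the B-like, macrophage-like, T or NK-like and endothelial-like cells thus stood above the fibroblast-like cells, and dendritic-like cells stood near them in control.

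Tgfb2, a ligand with roles in development and in epithelium, was held mostly by cancer-like, fibroblast-like and perivascular-like cells in these libraries. In tumors it reached 64.0 CPM (interval 60.2 to 68.1) and 61.8 CPM (57.6 to 66.1) in cancer-like cells of the control and D-CAN libraries. Perivascular-like cells of the tumor had 55.5 and 91.7 CPM and fibroblast-like cells 30.9 and 43.2 CPM, while macrophage-like and endothelial-like cells had at most 8.94 CPM. In SAT it was highest in fibroblast-like cells, at 109 and 64.0 CPM. Perivascular-like cells followed, at 59.1 and 54.4 CPM, with an interval that overlapped that of fibroblast-like cells in both libraries. SAT endothelial-like cells had 11.3 and 8.97 CPM, and held 13.3% and 15.8% of the Tgfb2 UMIs of their libraries. SAT control B-like cells (821) and T or NK-like cells (733) held no Tgfb2 UMI, and 3 UMIs, the limit used for a count of 0, would be 1.59 and 1.47 CPM there.

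Tgfb3, a ligand best known from palate and mammary gland development, had its highest levels in the stromal classes of both tissues. Tumor fibroblast-like cells had 95.1 CPM (67.9 to 129) in control and 123 CPM (96.6 to 154) in D-CAN. Tumor perivascular-like cells had 86.1 and 88.4 CPM, and cancer-like cells 19.6 and 18.1 CPM, below the intervals of both stromal classes. In SAT the same order of stroma over the rest held at lower levels, with 35.9 and 54.4 CPM in perivascular-like and 25 and 26.5 CPM in fibroblast-like cells. Every other SAT class had at most 5.20 CPM.

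Ltbp1, which binds latent ligand and tethers it to fibrillin and fibronectin, was shared by the same leading classes as Tgfb2, apart from tumor perivascular-like cells. In tumors it was highest in cancer-like cells, at 65.6 CPM (61.6 to 69.7) in control and 55.9 CPM (51.9 to 60.1) in D-CAN. Tumor fibroblast-like cells had 21.4 and 16.6 CPM, and tumor perivascular-like cells had 11.1 CPM in control and no UMI in D-CAN. In SAT it was highest in fibroblast-like cells, at 104 and 157 CPM. Perivascular-like cells had 59.1 and 68.9 CPM, with an interval that overlapped that of fibroblast-like cells in control. Endothelial-like cells had 25.1 and 20.9 CPM. SAT macrophage-like, dendritic-like and T or NK-like cells had no Ltbp1 UMI in either library.

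Taking all UMIs of a ligand in a library together, cancer-like cells held most of the tumor's ligand RNA. They made up 66.2% of control and 58.9% of D-CAN tumor cells and were the deepest class. They held 80.4% and 75.0% of Tgfb1, 95.8% and 93.5% of Tgfb2, 79.8% and 67.1% of Tgfb3, and 98.4% and 98.3% of Ltbp1 UMIs. Macrophage-like cells held 9.40% and 13.7% of the tumor's Tgfb1. Fibroblast-like cells, 3.04% and 4.44% of tumor cells, held 10.3% and 20.6% of its Tgfb3. In SAT the division was another one. B-like and T or NK-like cells held 38.3% and 27.9% of Tgfb1 UMIs in control and 44.0% and 27.0% in D-CAN. In SAT B-like cells the 5 neutrophil markers summed to 7.94 CPM in control and 2865 CPM in D-CAN, beside 3397 and 3024 CPM of the 5 B markers. The part of neutrophil RNA in the B-like values was not tested. Fibroblast-like cells held 62.2% and 50.9% of SAT Tgfb2 and 52.3% and 64.0% of SAT Ltbp1. These shares depend on which cells survived dissociation and on their depth.

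**Figure D1:**
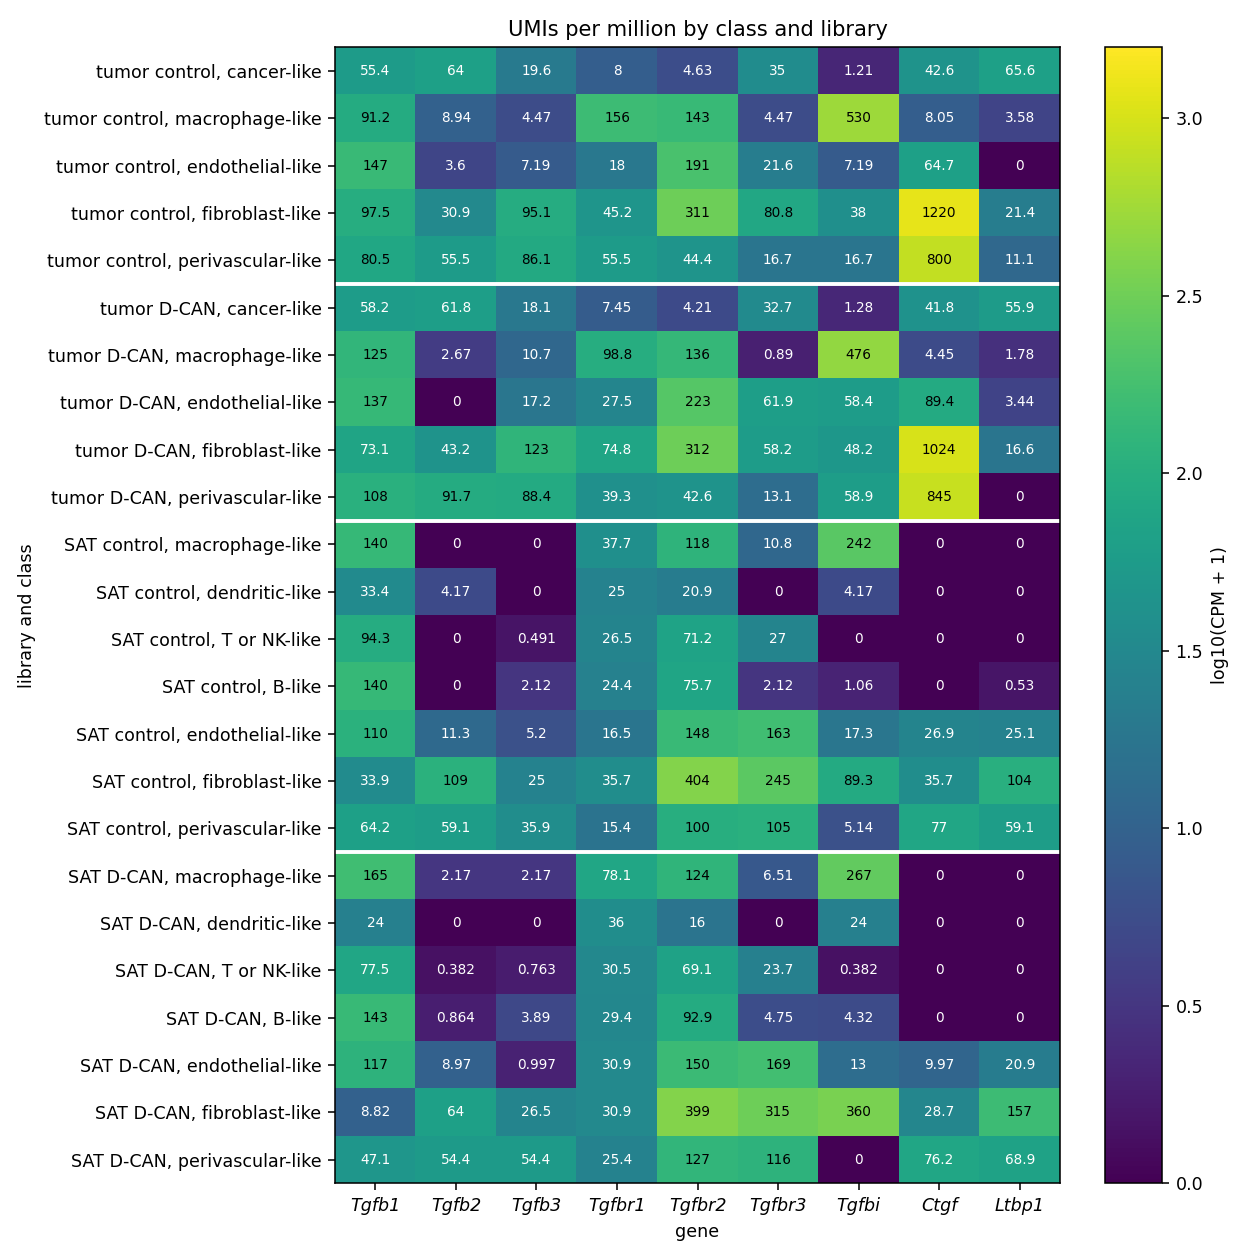
CPM of the 9 genes (columns) in each class of at least 20 cells in each library (rows), with colour for log10(CPM + 1) and the CPM printed in each cell. Ctgf stands at 799.6 to 1219.6 CPM in the fibroblast-like and perivascular-like cells of tumors and at no more than 89.4 CPM elsewhere, and Tgfbi at 476 and 530.2 CPM in tumor macrophage-like cells.

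The receptors were spread otherwise. Tgfbr2, the ligand-binding type II receptor, was highest in fibroblast-like cells of all 4 libraries, at 311 CPM (260.4 to 369.6) in tumor control, 312 (269 to 360.4) in tumor D-CAN, 404 (353 to 459.8) in SAT control and 399 (343 to 462) in SAT D-CAN. Endothelial-like cells came next in every library, with 148 to 223 CPM, and in tumor D-CAN their interval overlapped that of fibroblast-like cells. Cancer-like cells had 4.63 CPM (3.63 to 5.83) in control and 4.21 CPM (3.18 to 5.47) in D-CAN, the lowest of all classes, with a UMI in 3.83% and 5.94% of cells at the greatest depth of the study. Tgfbr1, the type I receptor kinase, was likewise lowest in cancer-like cells, at 8.0 and 7.45 CPM. It was highest in macrophage-like cells, with 156 and 98.8 CPM in tumors and 37.7 and 78.1 CPM in SAT, although the interval overlapped that of the next class in every library but tumor control.

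Tgfbr3, the coreceptor, separated the tissues. SAT fibroblast-like cells had 245 and 315 CPM, SAT endothelial-like cells 163 and 169 CPM and SAT perivascular-like cells 105 and 116 CPM, against 4.75 CPM or less in B-like cells. In tumors fibroblast-like cells had 80.8 and 58.2 CPM, endothelial-like cells 21.6 and 61.9 CPM and perivascular-like cells 16.7 and 13.1 CPM. Cancer-like cells had 35.0 and 32.7 CPM, so that this coreceptor, unlike Tgfbr1 and Tgfbr2, was held mostly by cancer-like cells, with 91.5% and 88.2% of the tumor's UMIs. A UMI of both Tgfbr1 and Tgfbr2 was found in 9.52% of tumor control and 31.8% of tumor D-CAN fibroblast-like cells, and in 4.76% and 9.20% of those of SAT. At an even depth of 1000 UMIs per cell, both receptors were seen together in at most 2.40% of cells of any class, too few to compare.

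The targets Tgfbi and Ctgf came from different classes. Tgfbi encodes a secreted matrix protein that binds integrins and collagen and was named for its induction by TGF-beta. In tumors macrophage-like cells held 93.2% and 86.9% of its UMIs, at 530.2 CPM (488 to 575) in control and 476 CPM (437 to 518) in D-CAN, while no other tumor class passed 58.9 CPM. Among the tumor macrophage-like clusters the level was 697 CPM in cluster 6, led by Cd74, H2-Ab1, Ly6c2 and Ccr2, 639.9 in cluster 13, 452 in cluster 3 and 197 in cluster 8. Cluster 8 had the highest Tgfbr1 and Tgfbr2 of the 4, at 207 and 238 CPM. At resolution 1.2 the tumor macrophage-like class held 580 control and 360 D-CAN cells in place of 640 and 427. There 60 and 67 tumor cells were named T or NK-like, a class not found in tumors at the main setting. No neutrophil-like class was found in tumors at the main setting either. The 5 neutrophil markers, all with a UMI, summed to 3476 CPM in control and 1087 CPM in D-CAN tumor macrophage-like cells. The part of T or NK-like or neutrophil-like cells in the levels of this class and its clusters was not tested. In SAT macrophage-like cells had 242 and 267 CPM of Tgfbi, and fibroblast-like cells 89.3 and 359.5 CPM. The 16 control and 18 D-CAN neutrophil-like cells of SAT, too few to be compared, were also high. They had 220.3 CPM (71.5 to 514, 5 UMIs) and 492 CPM (292 to 778, 18 UMIs).

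Ctgf (also called Ccn2), a matricellular protein of fibrosis and a direct target of TGF-beta and of YAP/TAZ, was highest in tumor stroma. Fibroblast-like cells of the tumor had 1219.6 CPM (1116 to 1329.8) in control and 1024 CPM (944 to 1108) in D-CAN, and perivascular-like cells 799.6 CPM (709.9 to 898) and 845 CPM (745 to 954). The tumor perivascular-like cells, which also had high Tgfb3, held UMIs of all 9 perivascular markers (3026 and 2655 CPM) and of 9 and 8 of 9 fibroblast markers (10801 and 12101 CPM). At resolution 0.4 the class held 75 control cells in place of 109, and the fibroblast-like class 118 in place of 84. Cancer-like cells had 42.6 and 41.8 CPM but, by their number and depth, 44.8% and 38.1% of the tumor's Ctgf UMIs, next to 34.2% and 42.2% in fibroblast-like cells. Among cancer-like clusters Ctgf ran from 9.63 CPM in cluster 0 to 111 CPM in cluster 4, led by Msln and Krt6a, and cluster 4 also had the highest Ltbp1, at 116 CPM. In SAT perivascular-like cells led with 77.0 and 76.2 CPM. No Ctgf UMI was found in the B-like and T or NK-like cells of both SAT libraries, which should lack the gene, and 3 UMIs would be 1.14 to 1.59 CPM there.

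The genes whose levels were most like those of a member over the 24 pairs of class and library, by Pearson correlation of log2(CPM + 1) over 11885 genes, are given as a description. The pairs share libraries and depths. Nearest to Ctgf were Mgp (0.959), Slc39a13 (0.953) and Fkbp10 (0.951). For Tgfb3 they were Dzip1l and Postn (both 0.938) and Snhg18 (0.935), and among the 9 genes themselves Tgfb3 and Ctgf were the most alike pair (0.92). Sirpa (0.95), Ctsb (0.883) and Ifi207 (0.878) were nearest to Tgfbi, Ly6a (0.921), Igfbp4 (0.856) and Wipf1 (0.847) to Tgfbr2, and Ctsc (0.870), Ifngr2 (0.808) and Emp3 (0.804) to Tgfbr1. Trim2, Wasl and Mxd4 (0.908 to 0.887) were nearest to Tgfbr3, Fnta, Gsta4 and Lgr4 (0.904 to 0.900) to Ltbp1, and Mgat3, Acadsb and Bmpr1a (0.902 to 0.894) to Tgfb2. Tgfb1, which was found everywhere, had the weakest neighbours, Cfl1, Pitpna and Snx30 (0.805 to 0.791).

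Fibroblasts of the tumor were then set against fibroblasts of SAT, separately in control and D-CAN mice. A gene was called higher or lower where its CPM differed at least 2-fold and it had at least 20 UMIs over both classes. This holds for all 9 genes in both comparisons. In control libraries 3 of the 9 were higher in the tumor (Ctgf, Tgfb3 and Tgfb1) and 4 were lower (Ltbp1, Tgfb2, Tgfbr3 and Tgfbi). Of all 6068 genes compared, 12.3% were called higher and 12.2% lower. In D-CAN libraries 4 were higher (Ctgf, Tgfb1, Tgfb3 and Tgfbr1) and 3 lower (Ltbp1, Tgfbi and Tgfbr3), beside 15.8% and 13.3% of 6161 genes. The median log2 ratio of the 9 genes was -0.37 and -0.35, beside 0.07 and 0.10 over all genes compared.

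Ctgf differed most. It had 513 and 616 UMIs in the fibroblast-like cells of the 2 tumor libraries, and 20 and 13 in those of SAT, where its level was 35.7 CPM (21.8 to 55.2) and 28.7 CPM (15.3 to 49.0). Neither tumor library came near either SAT library. The level was 33.3-fold higher in the tumor in control mice (log2 ratio 5.06, interval 4.45 to 5.82) and 34.4-fold higher in D-CAN mice (5.10, 4.37 to 6.08). A Ctgf UMI was found in 77.4% and 83.3% of tumor and in 4.08% and 9.20% of SAT fibroblast-like cells, and at 1000 UMIs per cell in 61.9% and 47.7% against 3.08% and 1.25%.

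The ligands did not move together. Tgfb3 had 40 and 74 UMIs in tumor and 14 and 12 in SAT fibroblast-like cells, and the tumor level was 3.72-fold higher in control mice (log2 ratio 1.89, 1.02 to 2.92) and 4.49-fold higher in D-CAN mice (2.17, 1.33 to 3.23). Tgfb1 had 41 and 44 UMIs in the tumor against 19 and 4 in SAT, with log2 ratios of 1.5 (0.70 to 2.39) and 2.90 (1.59 to 4.99). Both tumor libraries were above both SAT libraries for these genes. Tgfb2 went the other way, with 13 and 26 UMIs in the tumor and 61 and 29 in SAT. Its level was 3.42-fold lower in the tumor in control mice (log2 ratio -1.78, -2.81 to -0.94), and in D-CAN mice the log2 ratio was -0.56, with an interval from -1.39 to 0.25.

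The same fibroblast-like cells had less Ltbp1, betaglycan and Tgfbi RNA in the tumor. Ltbp1 had 9 and 10 UMIs in the tumor and 58 and 71 in SAT, with log2 ratios of -2.21 (-3.47 to -1.25) and -3.18 (-4.36 to -2.27), and the control ratio was -0.12 at 500 UMIs per cell. Tgfbr3 had 34 and 35 UMIs against 137 and 143, with log2 ratios of -1.58 (-2.18 to -1.05) and -2.42 (-3.02 to -1.90). For both genes the 2 tumor libraries lay below the 2 SAT libraries. Tgfbi had 16 and 29 UMIs against 50 and 163, with log2 ratios of -1.20 (-2.14 to -0.39) and -2.88 (-3.52 to -2.32). In control mice the ratio of Tgfbi turned to 0.35 at an even depth of 1000 UMIs, which 130 of the 294 SAT control cells reached. The signalling receptors differed less. Tgfbr2 was 1.29-fold lower in the tumor in control mice and 1.28-fold lower in D-CAN mice, with log2 ratios of -0.37 (-0.70 to -0.06) and -0.35 (-0.66 to -0.05). Tgfbr1 had log2 ratios of 0.34 (-0.65 to 1.32) and 1.24 (0.38 to 2.26). The former was 1.46 with every cell weighted equally, past 2-fold, and the latter was 0.30 at 1000 UMIs per cell.

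**Figure D2:**
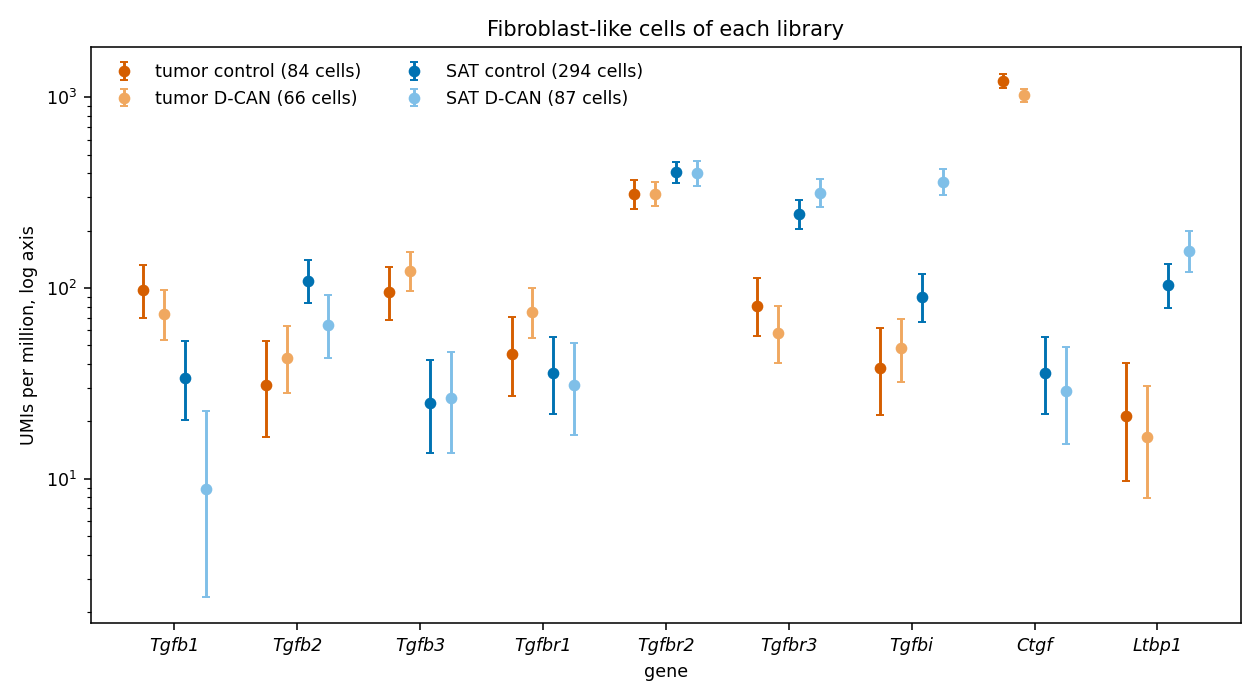
CPM of the 9 genes in the fibroblast-like cells of the 4 libraries on a log axis, with points for the level and bars for the 95% Poisson interval of the summed UMIs. Ctgf stands above 1000 CPM in both tumor libraries and at 35.7 and 28.7 CPM in SAT, whereas Tgfbr3 and Ltbp1 stand higher in both SAT libraries.

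RNA of other cell types in these classes was unequal between the libraries. In SAT control fibroblast-like cells hemoglobin genes had 2806 CPM, the 9 T or NK markers 343 CPM (7 with a UMI), the 8 endothelial markers 259 CPM (all with a UMI), the 5 B markers 121 CPM (all with a UMI) and the leukocyte gene Ptprc 85.7 CPM. In SAT D-CAN they had 24.3, 28.7, 33.1, 4.41 and 13.2 CPM. Tumor fibroblast-like cells held no UMI of Ptprc or hemoglobin, and their macrophage markers summed to 66.6 CPM in control and 302 CPM in D-CAN (6 and 8 of 9 with a UMI, Adgre1 at 0 in both). The 4 Schwann markers, all with a UMI, summed to 568 and 1899 CPM in SAT and to 9.51 and 1.66 CPM in the tumor. Without the cells that held a Ptprc or hemoglobin UMI, which were 15.3% of SAT control and 14.9% of SAT D-CAN fibroblast-like cells, the same members were called in both comparisons. Their part in the other results was not tested.

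Within the tumor the fibroblast-like cells formed 2 clusters that differed in these genes, although none of the 9 was used to form them. Cluster 12 held 115 cells, with 3002 CPM of Acta2, the smooth muscle actin of myofibroblasts. Cluster 14 held 35 cells, with 5.99 CPM of Acta2 and 965 CPM of Pi16, a marker of adventitial fibroblasts. Over both libraries cluster 12 had 1279 CPM of Ctgf against 209.8 in cluster 14 (log2 ratio 2.59, 2.12 to 3.14), 124 against 47.9 CPM of Tgfb3 (1.29, 0.34 to 2.62) and 95.8 against 18.0 CPM of Tgfb1 (2.20, 0.82 to 4.72). Cluster 14 was the higher for Tgfbr2, at 557 against 264 CPM (log2 ratio -1.08, -1.43 to -0.71), for Tgfbr3, at 204 against 40.9 CPM (-2.32, -3.04 to -1.59), for Ltbp1, at 71.9 against 8.18 CPM (-3.10, -4.72 to -1.67), and for Tgfbi, at 89.9 against 35.1 CPM (-1.38, -2.30 to -0.36). The direction of the ratio was the same within each library for these genes except Tgfbi. Tgfbi had 12 against 137 CPM in control and 49.7 against 38.0 CPM in D-CAN. Some of these ratios within 1 library had an interval that took in both directions. In D-CAN these were Tgfb3 (log2 ratio 0.44), Tgfb1 (1.36, with 2 UMIs in cluster 14) and Tgfbi (0.20). In control it was Ltbp1 (-1.63, from 5 and 4 UMIs). For these the single library does not settle the direction. Tumor perivascular-like cluster 11 had 93.1 CPM of Tgfb1 and 6.01 CPM of Ltbp1, with intervals that overlapped those of cluster 12, and less Ctgf (820.2 CPM, 753 to 892, against 1204 to 1357) and Tgfbr2 (43.6 CPM).

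The Acta2-poor tumor cluster 14 was set against the Pi16-rich SAT cluster 15 (43 cells, 4294 CPM of Pi16 and 6.13 CPM of Acta2). The log2 ratio of tumor cluster 14 over SAT cluster 15 was -0.31 (-0.68 to 0.04) for Tgfbr2, -0.55 (-1.17 to 0.02) for Tgfbr3, 0.04 (-0.99 to 0.96) for Tgfbi and -0.13 (-2.84 to 1.88) for Tgfb1, which had 3 and 7 UMIs, too few to show whether the clusters differed. It was 2.26 (1.36 to 3.30) for Ctgf, with 209.8 against 42.9 CPM, -1.63 (-3.26 to -0.48) for Tgfb2 and -1.35 (-2.43 to -0.49) for Ltbp1. For Tgfb3 it was 1.15 (-0.50 to 2.86), with 8 and 7 UMIs. For Tgfbr1 it was 0.53 (-1.01 to 1.96), with 8 and 11 UMIs. The intervals of Tgfb3 and Tgfbr1 took in both directions. Without cluster 12, a setting chosen after the data were seen, the control comparison of tumor with SAT fibroblast-like cells kept Ctgf as higher, with a log2 ratio of 2.07. The ratios of Tgfb1 and Tgfb3 turned to -1.03 and -0.60 and that of Tgfbi to 0.66, and that of Tgfbr3 came to -0.00. The 22 control cells of cluster 14 held 1 UMI each of Tgfb1, Tgfb2 and Tgfb3. The D-CAN library had 13 cells in cluster 14, too few for this comparison, with 7 UMIs of Tgfb3 (88.6 CPM).

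**Figure D3:**
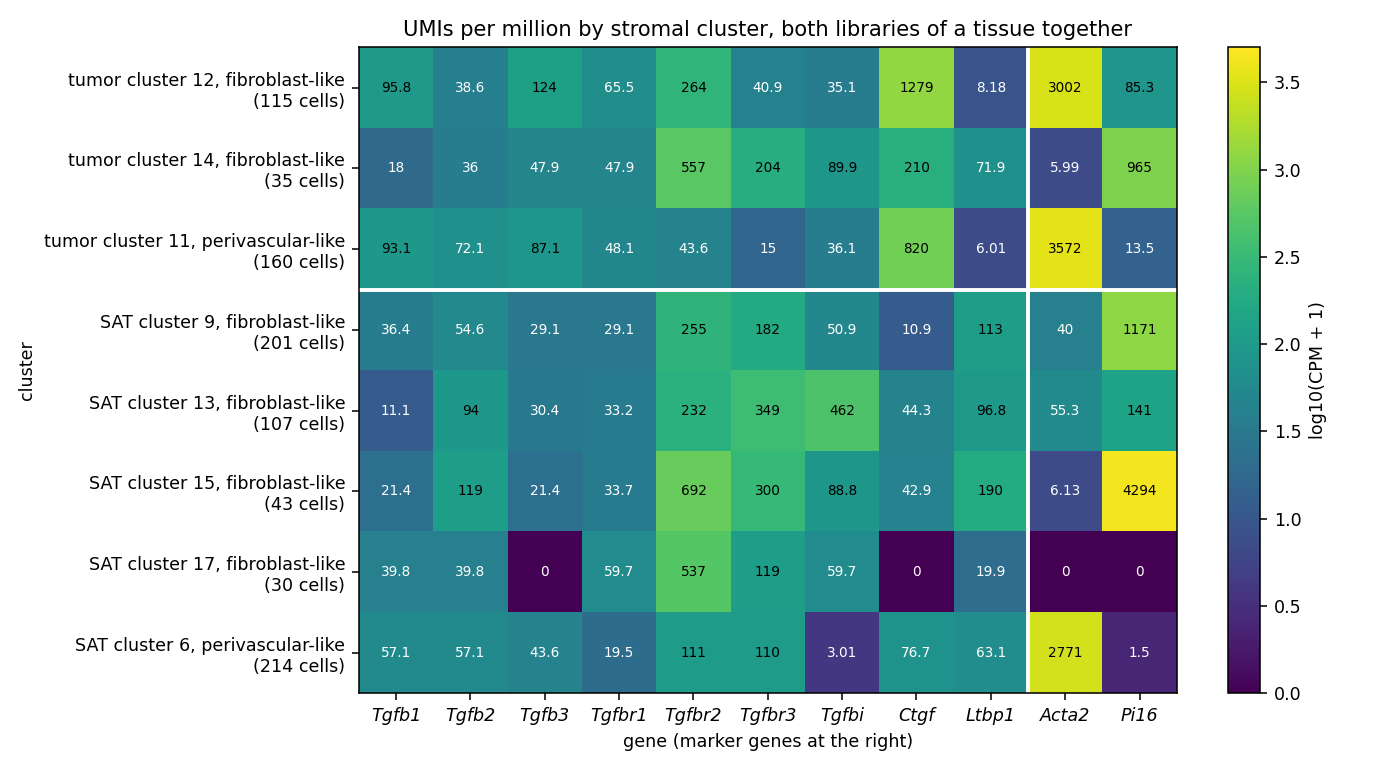
CPM of the 9 genes and of the marker genes Acta2 and Pi16 (columns) in each fibroblast-like and perivascular-like cluster (rows), with the 2 libraries of a tissue added and colour for log10(CPM + 1). The Acta2-rich tumor clusters 12 and 11 have 1279 and 820.2 CPM of Ctgf, tumor cluster 14 has 209.8, and no SAT cluster passes 76.7.

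SAT fibroblast-like clusters also differed from each other. Cluster 13, led by Apod, Inmt and Cxcl14, had 462 CPM of Tgfbi against 88.8 in cluster 15, 50.9 in the shallow cluster 9 and 59.7 in cluster 17. Cluster 15 had the highest Tgfbr2, at 692 CPM against 232 in cluster 13, and the highest Ltbp1, at 189.9 CPM. Tgfbr3 stood at 349 and 300.2 CPM in clusters 13 and 15, and Ctgf at 44.3 and 42.9 CPM. These clusters were not equally filled by the libraries. Cluster 17 held 30 control and 0 D-CAN cells, and cluster 9 held 178 and 23. The shallow cluster 9 thus gave 178 of the 294 SAT control fibroblast-like cells. The comparisons of tumor with SAT were not repeated without it.

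Other genes of the pathway were read from 4 lists in the same tumor and SAT fibroblast-like cells. The lists were chosen with earlier results of these data known, so their counts describe these libraries and are no independent support. No alternative setting was run for the list genes. Of 11 other targets, 10 had enough UMIs. In control mice 7 of these 10 were higher in the tumor and 0 lower, with a median log2 ratio of 2.67, beside 12.3% and 12.2% of all genes and a median of 0.07 over these. In D-CAN mice 8 were higher and 1 lower, with a median of 2.64, beside 15.8% and 13.3% and a median of 0.10. The 7 higher in both were Timp1, Tnc, Cdkn2b, Lox, Postn, Bgn and Loxl2. Timp1, an inhibitor of metalloproteinases, had 2701 and 4452 CPM in the tumor and 98.2 and 22.1 CPM in SAT. Periostin (Postn), a matricellular protein of activated fibroblasts, had 3012 and 2762 CPM against 396 and 143 CPM. Tenascin C (Tnc) had 387 and 464 UMIs in the tumor against 36 and 0 in SAT, and was at least 117-fold higher in D-CAN mice, with 3 UMIs in the class as the limit for a count of 0. The collagen crosslinking enzymes Lox and Loxl2 had log2 ratios of 3.12 and 1.13 in control mice and 2.21 and 1.58 in D-CAN mice. Junb, an immediate early transcription factor, was the gene that was lower in D-CAN mice, with 419 against 1330.1 CPM.

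The latency and activation list set Ltbp1 apart from its relative. Of its 11 genes 8 had enough UMIs, and 4 were higher and 0 lower in the tumor in control mice, and 3 higher and 1 lower in D-CAN mice. All genes gave 12.3% and 12.2%, and 15.8% and 13.3%, so the 1 lower gene is near the background. Ltbp2, a family member that does not bind latent TGF-beta, had 426 and 381 CPM in tumor fibroblast-like cells against 10.7 and 4.41 CPM in SAT, with log2 ratios of 5.20 (4.16 to 6.78) and 6.11 (4.56 to 9.49), opposite in sign to Ltbp1. Ltbp4 was the lower gene in D-CAN mice, with 28.3 against 194 CPM. Ltbp3 had a log2 ratio of 1.25 in control mice. Thbs1, thrombospondin 1, which can release the ligand from its latent complex, had 2579 and 1705 CPM in the tumor against 21.4 and 22.1 CPM in SAT. Lrrc32 (GARP), which holds latent ligand at the cell surface, had 95.1 and 126 CPM against 35.7 and 11 CPM.

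Of the 10 intracellular genes 8 had enough UMIs, and the share called was near that of all genes. In control mice 1 was higher and 0 lower (12.3% and 12.2% of all genes). In D-CAN mice 1 was higher and 1 lower (15.8% and 13.3%). Pmepa1, a TGF-beta target that restrains SMAD signalling, was the 1 higher gene in both comparisons, at 1346 and 1207 CPM against 264 and 240.4 CPM. Smad7, the inhibitory SMAD, was lower in the tumor in D-CAN mice, with 66.5 against 159 CPM. Of the 4 other receptors, 3 had enough UMIs in control mice, and 0 of these were called. In D-CAN mice 2 had enough, and 1 of them, Eng (endoglin), was higher, with 54.8 against 22.1 CPM. These are too few genes to set a share beside that of all genes (15.8% higher in D-CAN mice).

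**Figure D4:**
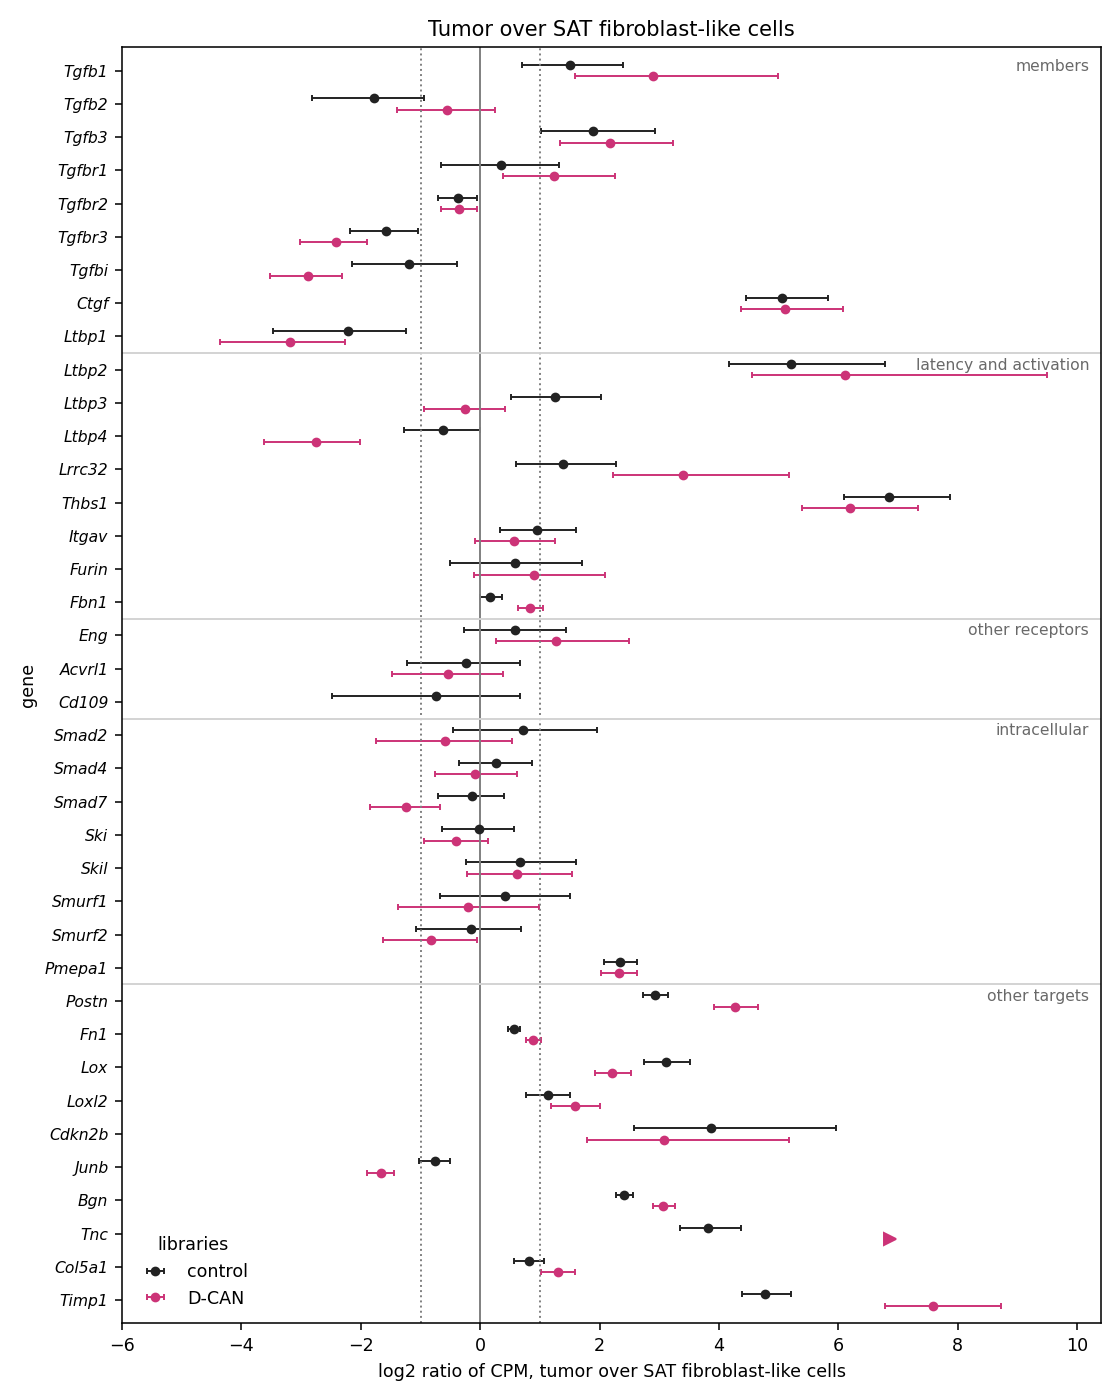
Log2 ratio of CPM, tumor over SAT fibroblast-like cells, for the 9 genes and the 4 lists, in control (black) and D-CAN libraries (magenta), with bars for the 95% counting interval and dotted lines at 2-fold, for genes with at least 20 UMIs over both classes. The triangle is the lower bound for Tnc, which was at 0 in SAT D-CAN. Most targets stand to the right, while Ltbp1, Tgfbr3 and Tgfbi stand to the left.

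D-CAN was compared with control within each class, the comparison for which the libraries were made. Over 11 tissue classes 67 values of the 9 genes had at least 20 UMIs, and 6 of these differed at least 2-fold. By class, 1.91% to 12.1% of all genes compared were called either way. In cancer-like cells all 9 genes could be compared and 0 were called, with log2 ratios from -0.23 (Ltbp1, interval -0.37 to -0.09) to 0.09 (Tgfbi, -0.95 to 1.11), beside 1.91% of all genes called either way. For Tgfb2 the log2 ratio was -0.05 (-0.19 to 0.08). Of 4 genes in tumor macrophage-like cells 0 were called (background 3.77%), with 0.46 (0.08 to 0.84) for Tgfb1, -0.66 (-1.02 to -0.31) for Tgfbr1 and -0.16 (-0.33 to 0.02) for Tgfbi. Neutrophil markers in this class summed to 3476 CPM in control and 1087 CPM in D-CAN, and their part in these ratios was not tested. Of 8 genes in tumor fibroblast-like cells 0 were called (background 4.82%), with -0.25 (-0.42 to -0.08) for Ctgf, 0.36 (-0.20 to 0.96) for Tgfb3 and 0.00 (-0.32 to 0.34) for Tgfbr2.

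SAT fibroblast-like cells were the class with 2 of 9 genes called, beside a background of 10.8%. Tgfbi had 50 UMIs in control and 163 in D-CAN, or 89.3 CPM (66.3 to 118) and 359.5 CPM (306 to 419), a 4.0-fold higher level in D-CAN (log2 ratio 2.0, 1.54 to 2.5). It was also the higher in D-CAN within cluster 13, at 638 against 199.7 CPM (log2 ratio 1.66, 1.09 to 2.31), and within cluster 15, at 130.1 against 44.5 CPM (1.48, 0.27 to 3.02). Within cluster 9 it was 44.2 against 53.1 CPM, from 3 and 11 UMIs. Cluster 13, with the most Tgfbi of the SAT fibroblast-like clusters, held 64 of the 294 control and 43 of the 87 D-CAN cells. The part of this unequal filling in the 4.0-fold value was not tested. The summed macrophage markers, whose class held the most Tgfbi in SAT control, were at 4.41 CPM in D-CAN and 37.5 CPM in control fibroblast-like cells. Neutrophil-like cells of SAT D-CAN had 492 CPM of Tgfbi. The part of macrophage or neutrophil RNA in the difference of Tgfbi was not tested. The 4 Schwann markers were higher in D-CAN too, at 1899 CPM against 568 CPM. With 20 principal components 11 control and 11 D-CAN cells of SAT were named Schwann-like. The SAT fibroblast-like class then held 275 and 76 cells in place of 294 and 87, and Tgfbi was still called higher. The part of Schwann-like cells in the difference of Tgfbi was not tested. Tgfb1 had 19 UMIs in control and 4 in D-CAN (log2 ratio -1.81, -3.96 to -0.35), while Ptprc stood at 85.7 and 13.2 CPM in the same cells, and the part of leukocyte RNA in this value was not tested. For Tgfb2 the log2 ratio was -0.76 (-1.46 to -0.11), with 24.1% of the D-CAN UMIs in 1 cell. Within cluster 13 Tgfb2 had 33 UMIs in 64 control cells and 1 in 43 D-CAN cells, and within cluster 15 it had 13 in 22 and 26 in 21.

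The other 4 calls rested on few molecules. Tgfbi in tumor perivascular-like cells had 6 UMIs in control and 18 in D-CAN (log2 ratio 1.75, 0.43 to 3.44), and 1 cell held 44.4% of the latter (1 of 7 genes called, background 6.43%). Tgfbr3 in tumor endothelial-like cells had 6 and 18 UMIs (1.44, 0.12 to 3.14, 1 of 4 genes called, background 7.05%). In the same endothelial-like cells the 9 fibroblast markers summed to 86.3 CPM in control and 869.6 CPM in D-CAN (6 and 7 with a UMI, Dpt at 0 in both) and the 9 perivascular markers to 766 and 1279 CPM, and their part in this value was not tested. Ctgf in SAT endothelial-like cells had 31 and 10 UMIs (-1.38, -2.62 to -0.37, 1 of 8 genes called, background 4.38%). There the libraries filled the clusters unequally, and cluster 4 with the most Ctgf, at 37.7 CPM, held 291 control and 47 D-CAN cells. Tgfbr1 in SAT macrophage-like cells had 14 and 36 UMIs (1.02, 0.13 to 2.06, 1 of 4 genes called, background 9.35%), opposite in direction to tumor macrophage-like cells, a difference that was not tested. In this SAT class the 9 macrophage markers summed to 17602 CPM in control and 9505 CPM in D-CAN. The 7 dendritic markers summed to 438 and 701 CPM and the 5 B markers to 202 and 397 CPM, and their part was not tested. Ctgf came to -0.63 with 20 principal components and Tgfbr1 to 0.81 with every cell weighted equally, both under 2-fold. In SAT T or NK-like (4 genes, background 2.72%), B-like (3 genes, background 3.74%) and perivascular-like cells (7 genes, background 12.1%) 0 were called. Neutrophil markers in the B-like cells summed to 7.94 CPM in control and 2865 CPM in D-CAN, and their part was not tested. SAT dendritic-like cells had under 20 UMIs for all 9 genes.

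**Figure D5:**
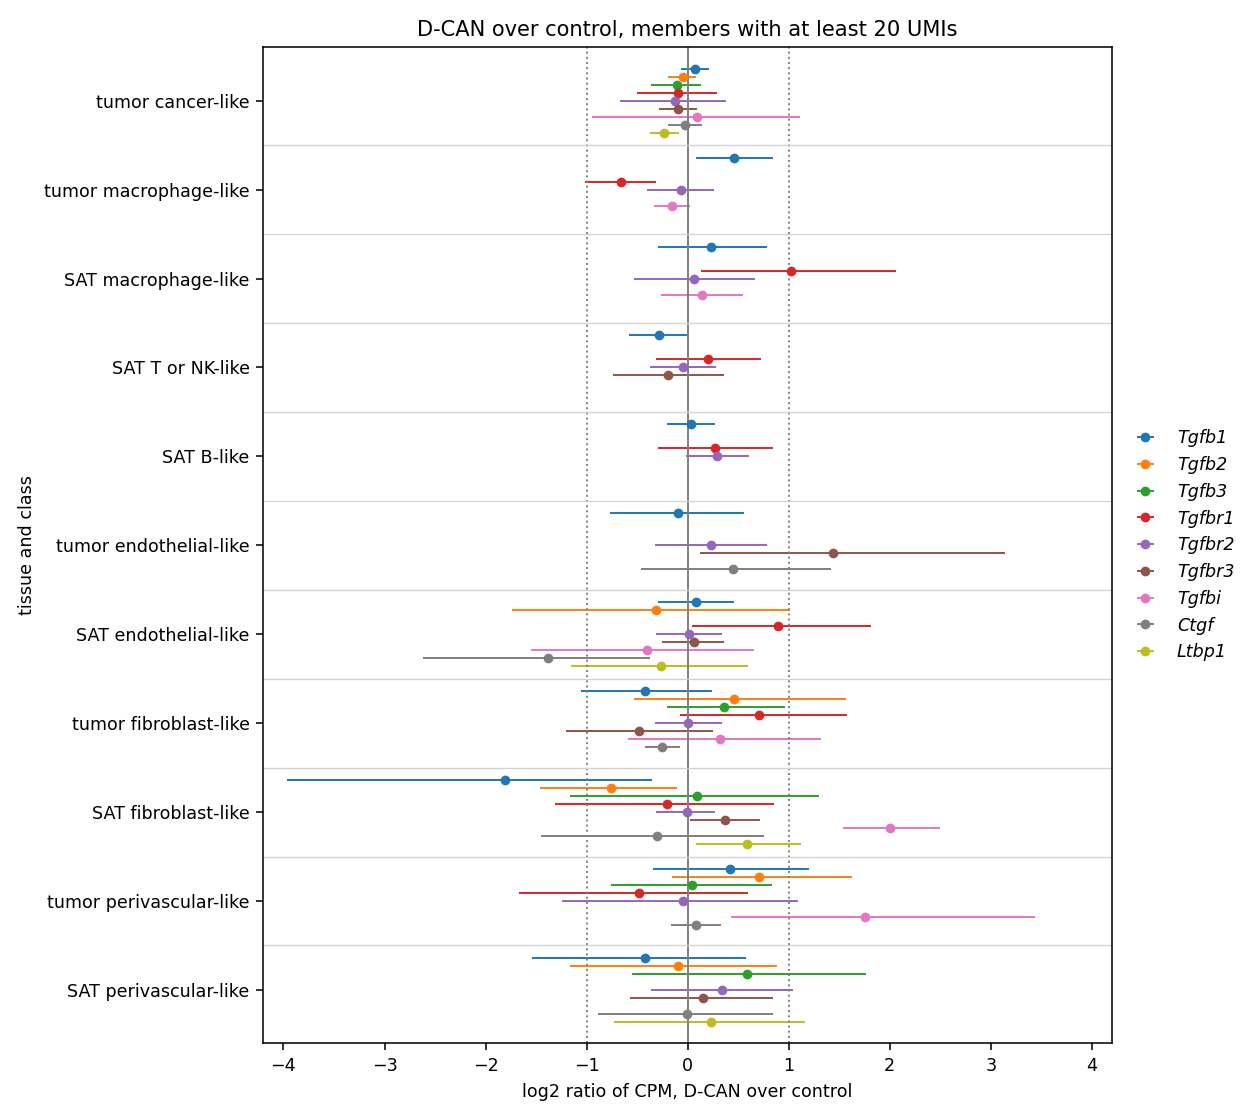
Log2 ratio of CPM, D-CAN over control, for those of the 9 genes that passed 20 UMIs in the 2 libraries together (colours), by tissue and class, with bars for the 95% counting interval and dotted lines at 2-fold. The points of cancer-like cells lie between -0.23 and 0.09, and Tgfbi in SAT fibroblast-like cells lies at 2.0.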

How the data were processed

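Dissociated cells of 4 samples were captured with the 10x Chromium 3′ assay. The authors used Cell Ranger 3.1.0 to align reads to mm10 with STAR (2.6 in the submitters' notes), call cells and deposit raw UMI counts per gene and cell, without normalization. The matrix header of SAT D-CAN names version 3.0.2. How many mice entered a library is not given in the sources used here.

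From these counts, cells with at least 200 genes of each tissue were clustered in Seurat 5.3.0 (R 4.3.3) at resolution 0.8 on 10 principal components (2000 variable genes). The members and list genes were kept out of the variable genes (25 were among them in tumor and 24 in SAT). A cluster was named from fixed markers if at least 3 were detected, in at least 10% of its cells and at 10% of the CPM of the highest cluster, and no other class had more markers among its top 10 genes. A cluster under 0.333 of the median depth needed a marker of its own there. These thresholds were chosen with the clusters, but not the levels of the members, in view. A stricter detection level had left a shallow SAT fibroblast cluster unnamed. Doublets were left in, because Scrublet (scanpy 1.11.5) failed to separate them, with 19 calls in 9128 cells. Python 3.11.15, numpy 2.4.6, scipy 1.17.1 and pandas 2.3.3 gave summed UMIs, exact Poisson intervals, exact binomial shares and log2 ratios with 0.5 UMI added and exact conditional intervals. Classes under 20 cells were not compared. The script was tested on simulated data. Positions are from GENCODE vM21.

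Named were the members, the 3 genes most like each and list genes past 2-fold in the fibroblast comparison. Members, markers and lists were chosen with earlier results of these data known, and 1 gene of the lists is not reported here. Alternatives were other cell filters, clusterings, gates, scalings, depths, minimum UMIs and pseudocounts.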

Additional observations from a re-analysis of the deposited data

How the results depend on the processing

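No paired analysis was possible because each group was 1 library. At an even depth of 1000 UMIs per cell, fewer members were called in tumor fibroblast-like cells. In control mice those called higher and lower went from 3 and 4 to 1 and 2. In D-CAN mice those called higher went from 4 to 1, Tgfbr3 and Tgfbi kept their lower call and Ltbp1 lost it. Most members that lost their call then had under 20 UMIs. At 500 UMIs 1 and 1 were called higher and lower in control and 1 and 0 in D-CAN mice. Without tumor cluster 12, an alternative chosen after the data were seen, 1 member was called higher in control mice, and Ltbp1 and Tgfb2 were still called lower. The 22 tumor control cells left held 1 UMI each of Tgfb1, Tgfb2 and Tgfb3. The log2 ratios were -1.03 for Tgfb1, -0.60 for Tgfb3 and 0.66 for Tgfbi. The last of these was 0.35 and 0.22 after thinning to 1000 and 500 UMIs, and -0.00 was the value of Tgfbr3 without cluster 12. Over classes, 6 member differences between D-CAN and control became 11 with every cell weighted equally, 1 at 1000 UMIs and 2 with a minimum of 50 UMIs. The share of all genes called was not computed under the alternatives, so these counts of members have no background beside them. Ctgf was called higher in the tumor under all 22 alternatives in control mice (2.07 to 5.36) and all 21 in D-CAN mice (4.91 to 5.97), and Tgfbi in SAT fibroblast-like cells under all 15 (1.31 to 2.07). Of 198 and 189 alternative values for the members, 183 and 178 kept their call. Lowering the minimum below 20 UMIs could not change a call here, because all members already had at least 20 UMIs. Leaving out a SAT cluster without D-CAN cells could not change a D-CAN value. The counts of kept calls include such fixed outcomes.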
